A study of Arabidopsis thaliana with 6 samples.

Results

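Transcripts of 7 enzymes that carry carbon from stored fat towards sugar were followed in dark-grown seedlings of Arabidopsis thaliana (thale cress), a model plant whose seeds store oil. The genes were MLS, ICL, PCK1, CSY2, CSY3, PMDH1 and PMDH2. Each symbol stood on exactly 1 of the 32921 named rows of the count tables, so all 7 were found. They were selected on earlier results of this same comparison, in which MLS and ICL counts were lower after traffic noise, and then taken by symbol from 1 pathway. Their differences between the groups are therefore given as a description, without a test of the 7 as a set. Calls of single members in the test across all loci are given beside the share over all tested loci. Whole wild-type seedlings were exposed for 48 h to recorded urban traffic noise averaging 75 dB (3 libraries), or, as the control, to white noise averaging 10 dB (3 libraries). All plates were sealed, wrapped in foil against light and kept in a sound-proof facility. The type of sound and its level changed together and cannot be told apart. The titles speak of seedlings and the descriptions of seeds. When the exposure began relative to sowing is not given in the sources used here.

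The germinating seedling lives on the fat of its seed until it can photosynthesise. Peroxisomes break fatty acids down to acetyl-CoA. The glyoxylate cycle then joins these units into organic acids by way of citrate synthase, aconitase, isocitrate lyase, malate synthase and malate dehydrogenase, bypassing the steps of the mitochondrial cycle that release carbon dioxide. Phosphoenolpyruvate carboxykinase turns oxaloacetate into phosphoenolpyruvate in the cytosol, which opens the way to sugar (gluconeogenesis). In germinating seedlings the transcripts of isocitrate lyase and malate synthase are known to peak early and to decline as the reserve is used up.

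The libraries held 17540009 to 20780363 counts on named rows, and the 7 genes had between 137 and 104457 counts in each library, so counting error was small beside the spread between libraries. Control replicate 3 stood apart, with 16128 loci detected where the other 5 libraries had 20026 to 20287. In control replicate 1, plastid and mitochondrial loci took 16.09% of counts (95% Wilson interval 16.07 to 16.11, counting error only), against 10.08% to 11.71% elsewhere. Storage transcripts were low. Of 12 seed storage and maturation genes, only OLEO3 and OLEO1 had enough counts to test. SESA2 and SESA4 were at 0 counts in every library. The summed level of the 12 was 64.5, 62.8 and 22.9 CPM in traffic noise replicates 1 to 3. In control replicates 1 to 3 it was 60.9, 66.1 and 26.3 CPM. OLEO3 made up most of this sum, and replicate 3 was the lowest library in each group. CPM is a count scaled to a common library size, with TMM factors between libraries. The summed level of 7 root genes was 129 to 139 CPM after traffic noise and 85.4 to 155 CPM in control, with the root hair gene SHV2 at 0 counts throughout, and that of 7 shoot genes was 4179 to 4815 CPM after traffic noise and 3789 to 6231 CPM in control. The median log2 fold change of the 7 shoot genes, traffic noise over control, was 0.03, with 5 positive and 2 negative. LHCB2.1, AS1 and PHYA were at 0.03, 0.01 and 0.06. STM was at 1.06 ± 0.91, and RBCS1A, the most abundant, at -0.52 ± 0.25. The 1 higher and the 1 lower gene with an unadjusted edgeR p under 0.05 were CAB1 and RBCS2B. The antenna gene CAB1 had 1315, 1116 and 1292 CPM after traffic noise and 366, 883 and 699.5 CPM in control, without overlap, and its log2 fold change was 0.93 ± 0.29 (adjusted p = 0.493 by edgeR and 0.0477 by DESeq2). The Rubisco small subunit gene RBCS2B had 462, 447 and 297 CPM after traffic noise and 586, 435 and 948 CPM in control, and its log2 fold change was -0.71 ± 0.30 (adjusted p = 0.642 by edgeR and 0.162 by DESeq2). Both belong to families of similar genes, between which counting may have divided reads. The part of organ or stage composition in the results below was not tested. In whole seedlings, fewer cells of a type and less RNA per cell cannot be told apart.

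All 7 genes are nuclear. In the RefSeq annotation of the TAIR10.1 build they lie on chromosomes 2 (CSY3, PMDH1), 3 (ICL, CSY2), 4 (PCK1) and 5 (MLS, PMDH2), all on the minus strand. MLS spans chr5:1032099-1034973 with 4 exons in its longest transcript, ICL chr3:7652487-7656053 with 5, and PCK1 chr4:17802690-17806705 with 13. CSY2 spans chr3:21724306-21728137 and CSY3 chr2:17802841-17806073. PMDH1 spans chr2:9689295-9692154 and PMDH2 chr5:2993411-2995784. None of the 451 words of 50 bases in the last 500 bases of each annotated transcript, where reads of a 3′ end library fall, occurred elsewhere in the genome, so that build holds no second exact copy of these ends. CSY3 alone overlaps another locus, the antisense RNA AT2G09400 on the opposite strand, which had 0 counts in all 6 libraries. The 250 bases before the outermost annotated start of MLS, ICL and CSY3 are shown because these were the members with the largest negative fold changes (CSY3 was added after its values were seen). Capitals mark matches on either strand to CACGTG (the G-box), to CATGCA (the RY motif of seed promoters), to TATCCA (a motif of sugar-repressed amylase promoters, described in rice) or to TATAAA (the TATA box).
MLS upstream, chr5:1034974-1035223, minus strand: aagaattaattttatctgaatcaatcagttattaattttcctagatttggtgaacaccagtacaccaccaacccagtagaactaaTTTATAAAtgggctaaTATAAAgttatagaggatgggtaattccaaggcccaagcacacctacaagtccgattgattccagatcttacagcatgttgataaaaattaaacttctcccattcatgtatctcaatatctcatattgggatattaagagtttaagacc
ICL upstream, chr3:7656054-7656303, minus strand: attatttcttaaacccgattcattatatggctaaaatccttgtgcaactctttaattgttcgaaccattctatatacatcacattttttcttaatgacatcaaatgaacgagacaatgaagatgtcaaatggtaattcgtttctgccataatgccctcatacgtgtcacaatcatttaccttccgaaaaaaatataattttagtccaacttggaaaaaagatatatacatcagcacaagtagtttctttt
CSY3 upstream, chr2:17806074-17806323, minus strand: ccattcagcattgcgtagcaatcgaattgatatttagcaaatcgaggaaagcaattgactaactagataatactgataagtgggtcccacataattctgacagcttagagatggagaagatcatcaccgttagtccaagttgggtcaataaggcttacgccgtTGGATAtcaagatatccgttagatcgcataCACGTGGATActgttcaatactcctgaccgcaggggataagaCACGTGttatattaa

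Few of these letters were shared between the members. CSY3 was the 1 member with CACGTG, which it held at 2 places, and 6.49% of the 27443 upstream regions of protein-coding genes of the same length held it. CSY3 also had 2 matches to TATCCA, of which 1 overlaps a G-box, and PMDH2 had 1; the motif was in 13.6% of all upstream regions. Of the 7 genes, 0 held CATGCA, against 8.43% of all regions. TATAAA occurred upstream of MLS (3 matches, 2 of them overlapping), CSY2, PMDH1 and PMDH2, and in 47.3% of all regions. The windows of CSY2 and PMDH2 overlap the neighbouring loci AT3G58760 and AT5G09670, so matches there may lie inside those loci. ICL and PCK1 held none of the 4 motifs in this window. A match is a run of letters and not a shown binding site.

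MLS encodes malate synthase, which condenses glyoxylate with acetyl-CoA and is one of the 2 enzymes particular to the cycle. Its level was 134, 93.7 and 73.7 CPM in traffic noise replicates 1 to 3, against 563, 309 and 582 CPM in control replicates 1 to 3. Every traffic noise library lay below every control library, and the lowest control value was more than 2 times the highest traffic noise value. The fitted fold was 0.208, a log2 fold change of -2.27 ± 0.31 (SE; traffic noise over control, n = 3 each). By count, MLS stood at rank 1082, 1628 and 1938 among the named rows in the traffic noise libraries, against 208, 426 and 224 in the control libraries. A 3′ end library gives about 1 read per transcript whatever its length, so such ranks compare transcript numbers. Leaving out any 1 library kept the log2 fold change between -2.53 and -2.09.

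ICL encodes isocitrate lyase, which splits isocitrate into succinate and glyoxylate and is the other enzyme particular to the cycle. It was the most abundant of the 7 transcripts in every library. The traffic noise libraries had 2630, 2077 and 934 CPM, and the control libraries 2741, 3385 and 6017 CPM. The groups did not overlap, but traffic noise replicate 1 and control replicate 1 lay close together, and each group had 1 library far from its other two. The mean was 1880 ± 865 CPM after traffic noise and 4048 ± 1736 CPM in control (SD, n = 3 each), with a log2 fold change of -1.11 ± 0.38. Without control replicate 3, the highest library and the one with few detected loci, the log2 fold change was -0.70, and without traffic noise replicate 3, the lowest, it was -0.78. Among the named rows ICL ranked 36, 54 and 126 in the traffic noise libraries and 30, 26 and 12 in the control libraries.

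Citrate synthase opens the cycle by joining acetyl-CoA to oxaloacetate, and CSY2 and CSY3 are its peroxisomal forms. CSY3, the more abundant in each library, had 38.5, 43.7 and 27.1 CPM after traffic noise and 56.0, 39.8 and 87.9 CPM in control. The groups overlapped, since traffic noise replicate 2 lay above control replicate 2, and the log2 fold change was -0.75 ± 0.34. Leaving out control replicate 3, the highest library, gave -0.39. CSY2 was the lowest of the 7, at 9.50, 8.32 and 24.6 CPM after traffic noise and 6.72, 10.9 and 10.0 CPM in control. Only traffic noise replicate 3 lay outside a narrow band. The log2 fold change of 0.62 ± 0.53 rested on that library, and without it the value was -0.05. CSY1, the remaining peroxisomal form, had 0 counts in every library.

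Malate dehydrogenase closes the cycle, and PMDH1 and PMDH2 are its peroxisomal forms, which are known to serve fatty acid breakdown by reoxidising NADH. PMDH2 had 73.5, 39.6 and 47.5 CPM after traffic noise and 57.3, 54.3 and 73.9 CPM in control, with a log2 fold change of -0.21 ± 0.29. PMDH1 had 31.8, 30.3 and 37.4 CPM after traffic noise and 38.8, 19.9 and 20.9 CPM in control, with a log2 fold change of 0.32 ± 0.34. For both genes the groups overlapped, and both differences were smaller than their standard errors.

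PCK1 encodes the cytosolic phosphoenolpyruvate carboxykinase. Its level was 200.3, 192.0 and 113 CPM after traffic noise and 198, 183 and 133 CPM in control. The groups overlapped throughout: replicate 3 was the lowest library in each. The log2 fold change was -0.02 ± 0.27, and over the fits that left out 1 library it ran from -0.18 to 0.20. That range is not a confidence interval. No test compared PCK1 with MLS or ICL, the genes on whose values the list was chosen. With 3 libraries a group, a small difference could not be detected. PCK2, the second gene for this enzyme, had 1.80 ± 1.10 CPM after traffic noise and 1.12 ± 1.05 CPM in control (SD, n = 3 each).

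**Figure D1:**
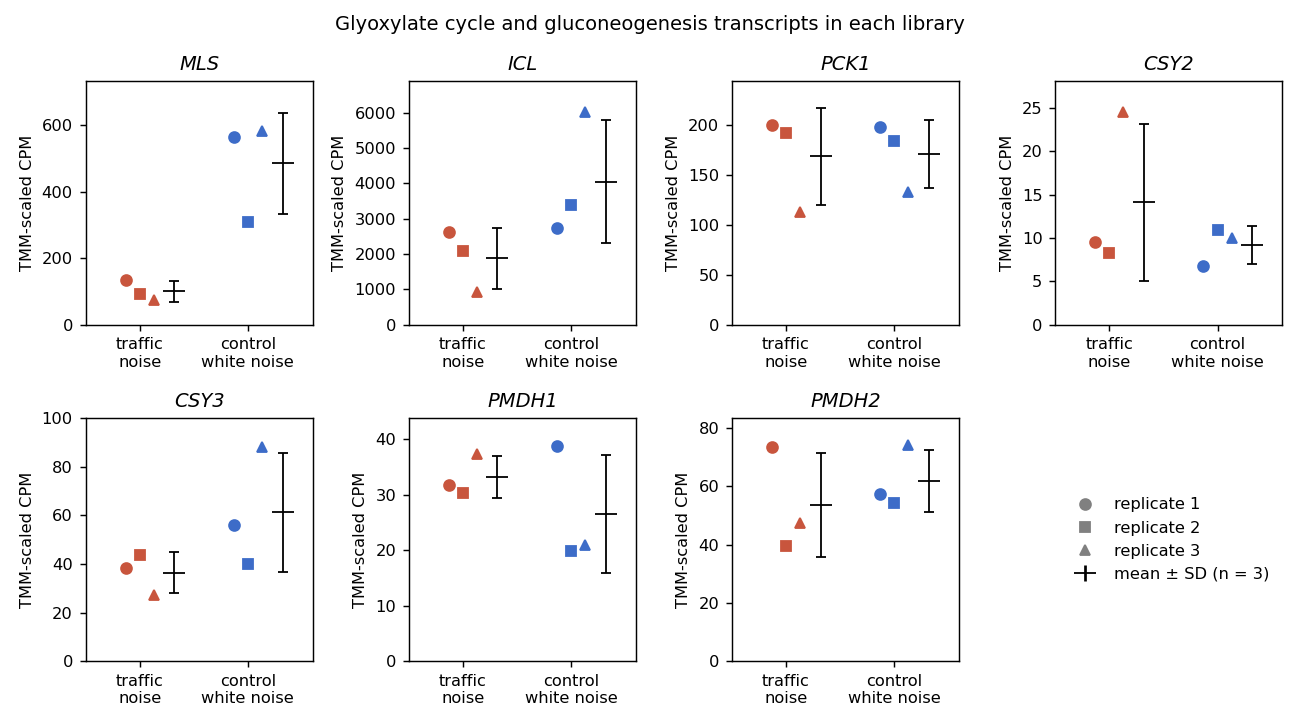
Level of each of the 7 transcripts (vertical axis, TMM-scaled CPM, a scale of its own for each gene, from 0) in the 3 traffic noise and 3 control white noise libraries; symbols are replicates and bars are mean ± SD (n = 3). The 2 groups are apart for MLS, touch for ICL (2630 against 2741 CPM at the nearest) and overlap for the other 5.

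**Figure D2:**
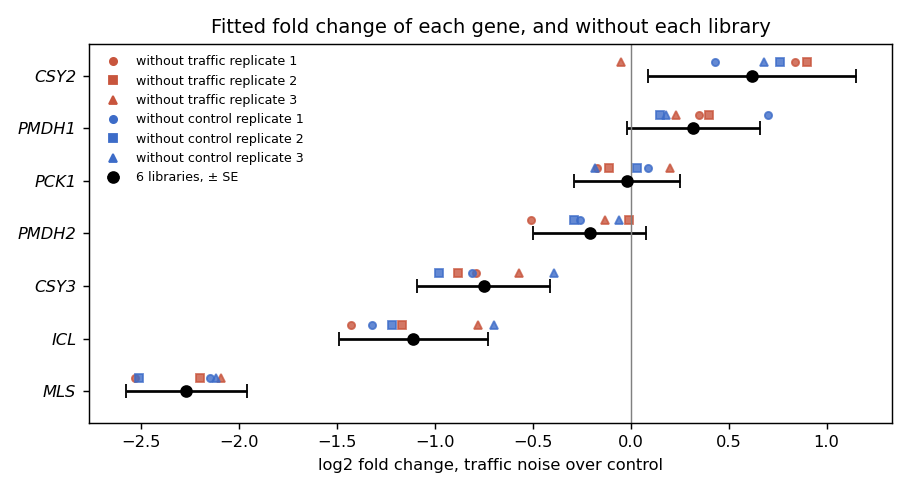
Fitted log2 fold change of traffic noise over control (horizontal axis) for each gene, as black points with SE from all 6 libraries, and as small symbols from the fits without 1 library. MLS stays between -2.53 and -2.09 without 1 library, while CSY2 is at -0.05 without traffic noise replicate 3.

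In the test across all loci, edgeR's quasi-likelihood test with Benjamini-Hochberg adjustment at 0.05, 0 of the 7 members were called, where 0.0105% of the 19112 tested loci were called lower and 0% higher. At an unadjusted p under 0.05, MLS, ICL and CSY3 were lower and 0 members higher, against 3.98% and 3.48% of all tested loci. Groups that did not overlap were seen for 2 members, MLS and ICL, both lower, where all traffic noise libraries lay below all control libraries for 7.39% of loci and above them for 8.99%. DESeq2 called 2 members lower, MLS and ICL, of the 5 to which it gave an adjusted p. Over its 4322 loci it called 3.05% lower and 1.94% higher. ICL only just passed (adjusted p = 0.0497 by DESeq2), and was at 0.527 by edgeR and 0.518 by limma-voom. MLS was also called lower by edgeR without control replicate 2 (log2 fold change -2.51) and without control replicate 3 (-2.12). EdgeR did not call MLS from all libraries (adjusted p = 0.0839), nor without control replicate 1 or any 1 traffic noise replicate. Since the genes were chosen with the lower MLS and ICL counts known, these calls and p-values lend that difference no support. The median log2 fold change of the 7 was -0.21, beside 0.05 over all tested loci, with 5 negative and 2 positive. It was -0.51 without traffic noise replicate 1 and -0.11 without traffic noise replicate 2.

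Ratios between members of the same library do not depend on how libraries are scaled. MLS counts were 0.0511, 0.0451 and 0.0789 of ICL counts in the traffic noise libraries, against 0.205, 0.0914 and 0.0967 in the control libraries. The groups did not overlap, and control replicate 1 was far above the other libraries. PCK1 exceeded MLS in each traffic noise library, with 1.49, 2.05 and 1.53 PCK1 counts per MLS count, and stayed below it in each control library, with 0.351, 0.593 and 0.228. For PCK1 over ICL the ratio was 0.0762, 0.0924 and 0.121 after traffic noise and 0.0721, 0.0542 and 0.0221 in control, again without overlap but with replicate 1 of each group nearly level. These ratios use the values on which the genes were chosen and are a description.

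The paralogue pairs showed no such separation. The ratio of CSY3 to CSY2 counts was 4.05, 5.25 and 1.10 after traffic noise and 8.34, 3.64 and 8.77 in control. PMDH1 counts were 0.432, 0.766 and 0.788 of PMDH2 counts after traffic noise and 0.676, 0.366 and 0.283 of them in control. Both ratios overlapped between the groups. Added together, the 7 transcripts came to 3118, 2485 and 1258 CPM after traffic noise and 3661, 4003 and 6924 CPM in control, and ICL made up most of that sum in each library.

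**Figure D3:**
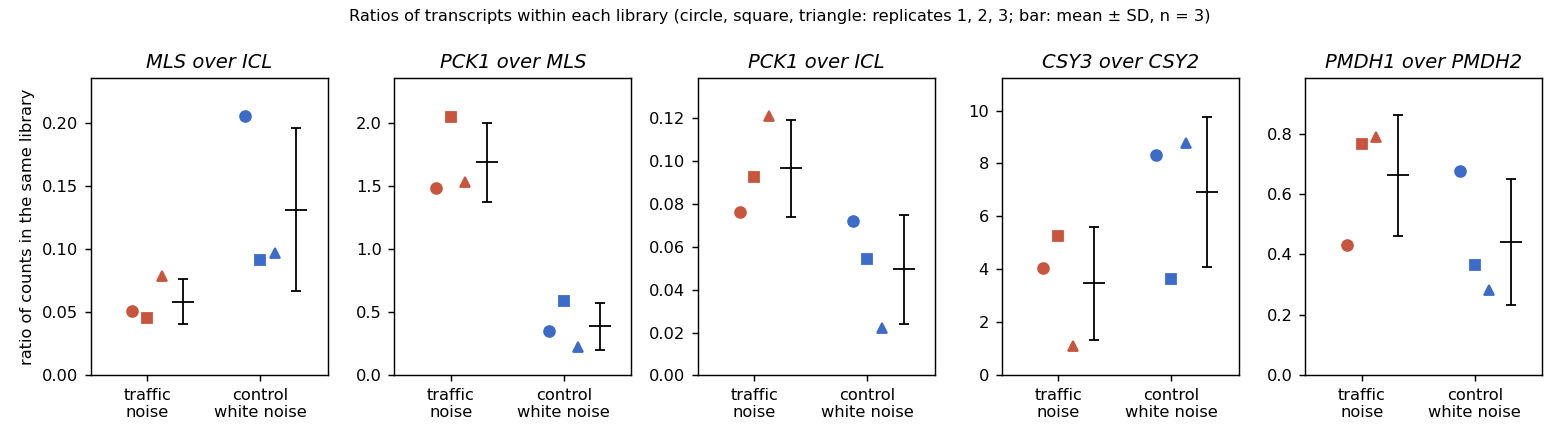
Ratio of the counts of 2 transcripts in the same library (vertical axis, no unit, from 0) for the 3 traffic noise and 3 control white noise libraries; circles, squares and triangles are replicates 1, 2 and 3 and bars are mean ± SD (n = 3). PCK1 over MLS is 1.49 or more after traffic noise and 0.593 or less in control, while the paralogue ratios overlap.

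Among the members, the profiles over the 6 libraries fell into no single pattern. Likeness was measured as the root-mean-square distance between log2 CPM values, each centred on the gene's own mean. ICL and CSY3 were the closest pair, at 0.431, followed by PCK1 and PMDH2 at 0.452. MLS and ICL were 0.712 apart, and MLS and CSY2 the farthest at 1.59. Across 5953 other loci with a symbol of their own and a mean of at least 20 CPM, the 5 nearest to MLS included 1 protein-coding locus, AT5G01590. The others were the small nucleolar RNAs AT1G08643 and AT4G04205, the non-coding RNA AT3G06365 and the plastid 5S ribosomal RNA ArthCr091. AT1G08643, the nearest at 0.353, had 64.0, 45.0 and 49.7 CPM after traffic noise and 179, 127 and 205 CPM in control. The 5 nearest to ICL were all protein-coding: MEF8S, the plastid RNA-binding protein gene RBP31, HMGB6, ORP1D and AT1G48355, at 0.255 to 0.287. RBP31 had 161, 141 and 89.4 CPM after traffic noise and 187, 176 and 367 CPM in control, so that control replicate 3 was the highest library for it as for ICL. These neighbours were found on the same 6 libraries and have no test.

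Other genes along the route were taken from 6 lists, of which 77 genes had a row of their own and 75 had enough counts to test. By edgeR 0 of the 75 were called, against the same 0.0105% lower and 0% higher of all tested loci. Those with an unadjusted p under 0.05 numbered 4 with higher and 4 with lower levels after traffic noise, where 3.48% and 3.98% of all tested loci had one. The groups did not overlap for 5 genes with higher and 8 with lower levels after traffic noise, beside 8.99% and 7.39% of all tested loci. In all, 38 fold changes were positive and 37 negative. DESeq2 called 1 lower of the 37 to which it gave an adjusted p, beside 3.05% lower and 1.94% higher over its own loci. This was ACO3, an aconitase, the enzyme that turns citrate into isocitrate and so stands between the 2 citrate synthases and ICL. ACO3 had 149, 124 and 139 CPM after traffic noise and 257, 180 and 313 CPM in control, without overlap, and its log2 fold change was -0.86 ± 0.24. The adjusted p was 0.493 by edgeR and 0.0333 by DESeq2. The gene was singled out after its values were seen.

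Of the other enzymes between citrate and sucrose, 23 were tested, with a median log2 fold change of -0.11, 10 positive and 13 negative. In 5 of them (ACO3, GAPC1, GAPC2, AT5G42740 and UGP1) every traffic noise library lay below every control library, as in 7.39% of all tested loci, and in 0 of them above. The most abundant were the cytosolic glyceraldehyde-3-phosphate dehydrogenases GAPC2, at 1333 ± 89.4 CPM after traffic noise and 1620 ± 82.7 CPM in control, and GAPC1, at 309 ± 43.1 and 481 ± 122 CPM (SD, n = 3 each). The cytosolic malate dehydrogenase c-NAD-MDH1 was level between the groups, at 329 ± 29.0 CPM after traffic noise and 336 ± 55.8 CPM in control. GAPC1 and the phosphoglucose isomerase gene AT5G42740 were, with ACO3, the 3 that had an unadjusted p under 0.05, all with negative fold changes. Their log2 fold changes were -0.64 ± 0.23 for GAPC1 and -0.93 ± 0.40 for AT5G42740, and edgeR called neither. The cytosolic fructose-1,6-bisphosphatase gene FBP, whose enzyme acts only in the direction of sugar, had 34.5 ± 5.38 CPM after traffic noise and 30.4 ± 4.38 CPM in control.

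The mitochondrial cycle shares intermediates with the glyoxylate cycle, and 10 of its genes had a median log2 fold change of -0.07. The most abundant were mMDH1, at 48.5 ± 3.21 CPM after traffic noise and 63.7 ± 6.41 CPM in control, the succinate dehydrogenase gene SDH1-1, at 49.6 ± 4.11 and 52.0 ± 38.5 CPM, and SDH2-1, at 33.0 ± 1.62 and 43.6 ± 11.4 CPM. The wide control spread of SDH1-1 came from control replicate 3, at 7.78 CPM against 69.9 and 78.3 CPM in the other two. Fumarase, FUM1, was the 1 gene with an unadjusted p under 0.05, at a log2 fold change of -0.95 ± 0.40. Of all tested loci, 3.98% were lower and 3.48% higher at that threshold. For 2 of the 10, mMDH1 and FUM1, every traffic noise library lay below every control library, as for 7.39% of all tested loci. For 0 of them it lay above, beside 8.99%. EdgeR called 0 of the 10. Among the 7 carriers of acids, cofactors and acyl groups, the median was 0.05. The mitochondrial carrier genes BOU and AT5G19760 were the most abundant. BOU had 65.4 ± 11.5 CPM after traffic noise and 84.8 ± 32.2 CPM in control, and AT5G19760 had 45.9 ± 8.67 and 69.2 ± 22.2 CPM.

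Fat breakdown feeds the cycle, and its 12 tested genes had a median log2 fold change of -0.25, with 4 positive and 8 negative. SDP1, the lipase that begins the release of fatty acids from stored oil, went against that median. It had 79.8, 56.5 and 64.8 CPM after traffic noise and 34.7, 55.1 and 16.2 CPM in control, narrowly without overlap, with a log2 fold change of 0.92 ± 0.40. SDP1 was the 1 gene of this list with an unadjusted p under 0.05 (adjusted p = 0.643 by edgeR), and ACX2 the 1 gene with every traffic noise library below every control library. The 3 most abundant were the acyl-CoA oxidases ACX4, at 215 ± 20.9 CPM after traffic noise and 169 ± 26.0 CPM in control, and ACX1, at 88.8 ± 27.3 and 119 ± 13.2 CPM, together with the thiolase PKT3, at 149 ± 15.6 and 162 ± 13.9 CPM. Peroxisome biogenesis genes, which build the organelle and import its enzymes, had a median log2 fold change of 0.22 over 18 genes, with 14 positive. PEX13, a protein of the import channel, had 215, 201 and 160 CPM after traffic noise and 103, 137 and 111 CPM in control. PEX11E, which acts in peroxisome division, had 110, 119 and 149 CPM after traffic noise and 74.8, 88.5 and 62.8 CPM in control. PEX7, the receptor that imports enzymes with an N-terminal signal, had 94.3 ± 7.49 CPM after traffic noise and 66.0 ± 11.0 CPM in control. For these 3 of the 18 genes every traffic noise library lay above every control library, as for 8.99% of all tested loci, and the log2 fold changes were 0.71 ± 0.22, 0.74 ± 0.24 and 0.52 ± 0.23. Of the 18, 2 were higher and 0 lower at an unadjusted p under 0.05, beside 3.48% and 3.98% of all tested loci, and edgeR called 0 (adjusted p = 0.493 for PEX13, the smallest).

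In light, the peroxisomes of cotyledons change from enzymes of the glyoxylate cycle to those of photorespiration. Of 8 leaf peroxisome genes listed for this change, only 5 could be matched and tested: GOX1, GOX2, HPR, AGT and CAT1. Their log2 fold changes were positive for 2 (AGT and CAT1) and negative for 3, with a median of -0.16. CAT1 was imprecise, at 0.69 ± 0.85 with a mean of 9.51 CPM. The count and the median describe these 5 genes and not the full list. The glycolate oxidases GOX2 and GOX1 had 271 ± 83.7 and 222 ± 12.9 CPM after traffic noise and 385 ± 203 and 317 ± 229 CPM in control, where control replicate 3 stood at 619 and 582 CPM and the other 2 libraries at 184 to 273 CPM. AGT, a peroxisomal aminotransferase, had 212, 234 and 181 CPM after traffic noise and 76.8, 165 and 143 CPM in control, with a log2 fold change of 0.70 ± 0.29 that edgeR did not call.

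**Figure D4:**
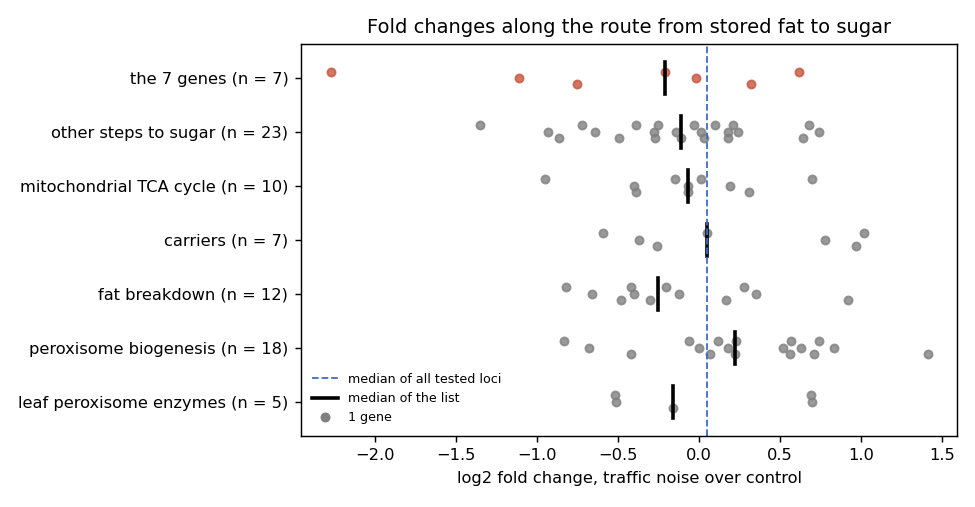
Log2 fold change of traffic noise over control (horizontal axis) for each tested gene of the 7 members (red) and of 6 lists along the route (grey); thick bars are list medians and the dashed line is the median of all tested loci, 0.05. MLS, at -2.27, is the lowest point. ICL, at -1.11, lies above FBA5 of the other steps to sugar (-1.35 ± 2.55, mean 0.615 CPM). The list medians run from -0.25 to 0.22.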

How the data were processed

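RNA of 6 samples of whole wild-type seedlings was measured. Per the labels' protocols, Trizol was used to extract total RNA, and libraries came from the QuantSeq kit of Lexogen, designed to sequence each polyadenylated transcript near its 3′ end. Bowtie2, bedtools and the TAIR10 build are listed in the submitters' processing notes. Not given in the sources used here are versions, settings, strand use and the treatment of reads with several matches. The authors deposited raw counts per gene symbol, whole numbers with no normalization. The 218 rows without a name (0.0431% to 0.0886% of counts) were left out.

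The members and lists were chosen with earlier results of these data known. Loci were filtered with edgeR's filterByExpr (19112 kept, all 7 members among them), scaled by TMM and tested with edgeR's quasi-likelihood F test (robust), adjusted by Benjamini-Hochberg over all tested loci. The SE was taken as the absolute log2 fold change divided by √F. Named genes were all members, the 3 most abundant tested genes of each list, the 5 loci nearest to MLS and to ICL, and a few chosen after their values were seen, among them the other list genes with an unadjusted p under 0.05. Lists were matched by locus through the RefSeq TAIR10.1 annotation, which also gave positions and sequence, since the files hold no coordinates. Genes whose symbol stood on several rows were skipped. One gene that the naming rule picks is not reported here.

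Whether replicates were separate plates is not given, so p-values reflect spread between these libraries that may be technical only. Samples with the same replicate number were not treated as pairs in the reported fit. Alternatives were DESeq2, limma-voom, other scalings and filters, organelle loci left out, a replicate block and each library left out. Scripts were tested on simulated counts. Software was R 4.3.3, edgeR 4.0.16, DESeq2 1.42.0, limma 3.58.1, Python 3.11.15, pandas 2.3.3, scipy 1.17.1 and matplotlib 3.10.9.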

Additional observations from a re-analysis of the deposited data

How the results depend on the processing

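The log2 fold changes of MLS, ICL, CSY3, PMDH1 and PMDH2 kept their sign in all 14 alternatives. With 1 library left out, they ran from -2.53 to -2.09 for MLS, -1.43 to -0.70 for ICL, -0.98 to -0.39 for CSY3, 0.15 to 0.70 for PMDH1, -0.51 to -0.01 for PMDH2, -0.18 to 0.20 for PCK1 and -0.05 to 0.90 for CSY2, and the median of the 7 from -0.51 to -0.11. EdgeR called 0 members from all 6 libraries, 1 without a filter on low counts, and 0 to 1 with a library left out (MLS, without control replicate 2 or 3); limma-voom called 1 and DESeq2 2. Over all loci, 2 were lower and 0 higher in the reported fit. DESeq2 called 132 lower and 84 higher, limma-voom 10 and 4, edgeR without a filter 5 and 1, edgeR with a mean of at least 50 counts or without organelle loci 0 lower, and the fits with a library left out 0 to 13 lower and 0 to 18 higher. DESeq2 called 1 other pathway gene, ACO3. The cause of these shifts was not tested. With the replicate number as a block, 0 loci were lower and the median of the 7 was -0.25. Deviations of samples with the same number correlated at -0.009, 0.014 and 0.019 across loci. From so few libraries, such values cannot show whether samples with the same number shared a batch or harvest. Some genes, such as PCK1 and OLEO3, were lowest in replicate 3 of both groups. With 3 libraries a group and a common biological coefficient of variation of 0.757, small differences could not be detected.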
